A study of Homo sapiens with 6 samples.

Results

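Cholesterol synthesis and sterol regulation were examined through 33 genes, listed by name for their place in the mevalonate and sterol pathways or in the control and movement of cholesterol, out of 31122 genes in the deposited count table. All 33 were found there under the listed symbols. The list does not hold every enzyme of the pathway. RNA sequencing covered 6 cultures of MDA-MB-468, an established basal-like, triple-negative human breast cancer line. The KO-labelled group held 3 libraries, titled 11, 12 and OG, from populations edited by CRISPR-Cas9 with a single guide RNA (sgRNA1) aimed at GPR52, a G protein-coupled receptor with no settled ligand. The parental-labelled group held 3 libraries, W1, W2 and W3, from wells of 1 plate of the unedited line, which all 6 cultures share as their origin. Whether each edited population is a clone or a pool is not stated, and p-values measure only the spread between these samples, which may be technical.

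The targeted gene went against the labels. GPR52 had 645, 694 and 724 counts in the libraries labelled GPR52 KO, against 9, 1 and 0 in those labelled parental, so higher and lower refer throughout to the labels, not to a known state of GPR52. Total counts ran from 25983764 to 27956600 in KO-labelled and from 25637794 to 31692454 in parental-labelled libraries, and 17420 genes had enough counts to be tested. Of these, 40.8% changed, 21.0% higher and 19.8% lower (edgeR quasi-likelihood test, adjusted p under 0.05 over all genes tested). The second principal component (11.0% of variance) set OG apart from 11 and 12. All 5 epithelial and all 6 basal-like marker genes were above 1 CPM (counts scaled to library size) in every library. The summed fibroblast markers held 24.3 to 31.8 CPM in KO-labelled and 8.94 to 11.3 CPM in parental-labelled libraries, mostly COL1A1, and the summed leukocyte markers 2.54 to 4.07 and 27.3 to 37.1 CPM, mostly CD14. Endothelial markers summed to 3.18 to 7.28 and 3.69 to 4.22 CPM and adipocyte markers to 1.77 to 2.45 and 2.78 to 3.47 CPM. The part of any of these in the results below was not tested. In bulk RNA, fewer cells of a type and less RNA per cell cannot be told apart.

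Cholesterol is built from acetyl-CoA in the cytosol and endoplasmic reticulum. The early, mevalonate steps end at farnesyl diphosphate, which also feeds protein prenylation, dolichol and ubiquinone, and the late steps commit it to squalene, lanosterol and cholesterol. When membrane sterol is low, SCAP carries the transcription factor SREBP2 (gene SREBF2) to the Golgi, where it is cut and released to switch on most genes of synthesis. INSIG proteins hold it back when sterol is high. Oxysterols in turn activate the LXR receptors (NR1H2 and NR1H3), which raise genes of cholesterol export.

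Most enzyme transcripts that changed were lower in KO-labelled libraries. Of the 33 genes 32 were tested and 18 changed, 14 lower (43.8%, beside 19.8% of all genes tested) and 4 higher (beside 21.0%). The median log2 fold change was -0.24, against 0.01 over all genes tested. Among the 19 enzymes of the early and late steps, 11 were lower and 2 higher. Adjusted p-values of the 18 ran from 8.57e-06 to 0.0495. In 15 of the 32 the KO-labelled values lay wholly below the parental-labelled ones and in 4 wholly above, where 27.1% and 27.4% of all genes tested did so. Without OG 21 were called, 16 lower and 5 higher, where 26.0% and 26.6% of all genes were. A test against a 1.5-fold change called 5 lower (ACAT2, IDI1, FDPS, MSMO1 and EBP), where it called 5.18% of all genes lower.

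**Figure D1:**
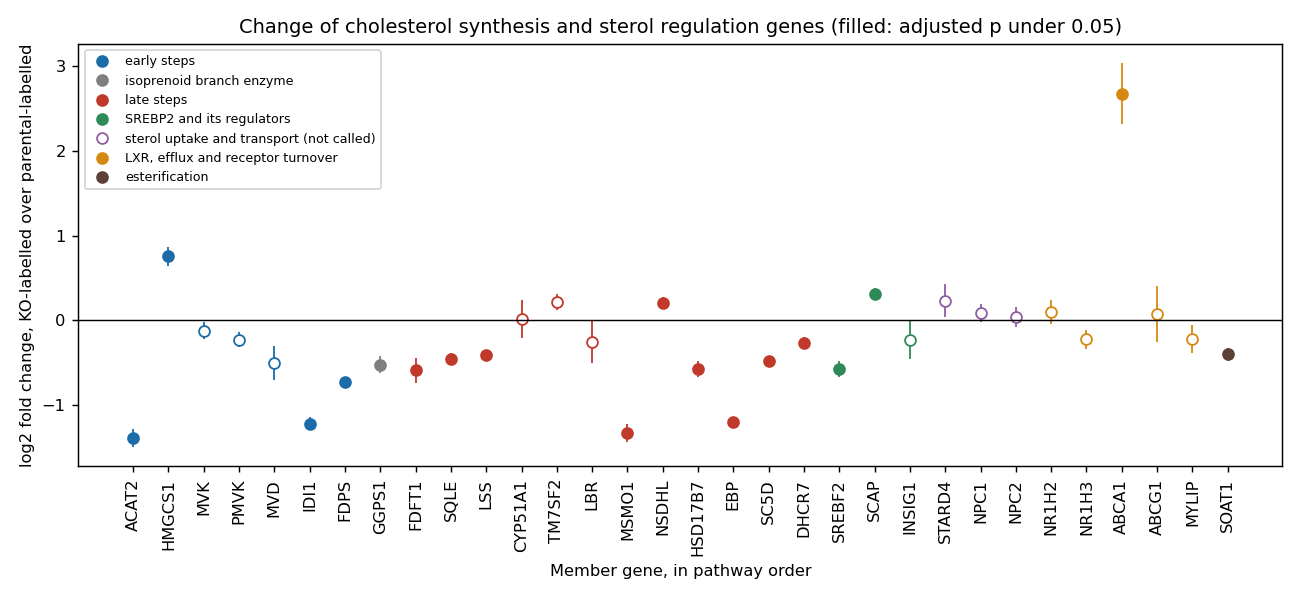
Log2 fold change (KO-labelled over parental-labelled, edgeR, with SE bars) of the 32 tested genes in pathway order, coloured by role, with filled points for adjusted p under 0.05. ACAT2, IDI1, MSMO1 and EBP lie lowest, between -1.38 and -1.20, and ABCA1 highest at 2.67.

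Promoters of 29 of the 33 genes were found in RefSeq (GRCh38.p14), each from 250 bases before to 50 after the gene's start. The exact letters of the NF-Y box (CCAAT, either strand), a factor that works beside SREBP2 at sterol genes, stood in 19 of the 29 (65.5%), against 36.6% of 10119 promoters of tested genes. The Sp1 box (GGGCGG, either strand) stood in 24 (82.8%), against 69.0%. The sterol regulatory element searched as TCACNCCAC on either strand was found in SREBF2 alone (3.45%, against 1.09% of promoters of tested genes), and began 133 bases before the gene's start. No match says only that these letters are not in this window. The boxes were present in genes that went in opposite directions, and 4 promoters are shown for that reason, HMGCS1 as the early enzyme that rose, MSMO1 and EBP as late enzymes that fell most, and SREBF2 for its element. Capitals mark CCAAT or its reverse complement ATTGG, and in SREBF2 also the sterol element. The windows are chr5:43313363-43313662 (minus strand) for HMGCS1, chr4:165327419-165327718 (plus) for MSMO1, chrX:48521558-48521857 (plus) for EBP and chr22:41832855-41833154 (plus) for SREBF2. HMGCS1 holds 2 boxes, MSMO1 4, EBP 3 and SREBF2 1.
HMGCS1: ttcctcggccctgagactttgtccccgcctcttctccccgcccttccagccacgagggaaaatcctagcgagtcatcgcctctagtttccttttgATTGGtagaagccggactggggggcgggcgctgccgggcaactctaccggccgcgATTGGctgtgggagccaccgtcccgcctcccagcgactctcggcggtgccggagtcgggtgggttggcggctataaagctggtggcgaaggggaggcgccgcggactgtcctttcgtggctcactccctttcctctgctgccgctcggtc
MSMO1: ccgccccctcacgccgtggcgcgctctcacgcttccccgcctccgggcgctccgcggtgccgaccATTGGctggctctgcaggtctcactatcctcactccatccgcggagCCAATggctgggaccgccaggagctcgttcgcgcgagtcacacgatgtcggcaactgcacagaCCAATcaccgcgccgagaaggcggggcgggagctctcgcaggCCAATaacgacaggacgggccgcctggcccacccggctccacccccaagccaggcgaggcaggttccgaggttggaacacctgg
EBP: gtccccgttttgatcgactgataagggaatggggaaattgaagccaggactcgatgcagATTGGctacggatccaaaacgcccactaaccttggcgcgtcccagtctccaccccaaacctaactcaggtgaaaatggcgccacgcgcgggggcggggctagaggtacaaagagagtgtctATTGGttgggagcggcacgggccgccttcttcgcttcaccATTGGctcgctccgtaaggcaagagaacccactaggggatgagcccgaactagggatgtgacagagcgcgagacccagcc
SREBF2: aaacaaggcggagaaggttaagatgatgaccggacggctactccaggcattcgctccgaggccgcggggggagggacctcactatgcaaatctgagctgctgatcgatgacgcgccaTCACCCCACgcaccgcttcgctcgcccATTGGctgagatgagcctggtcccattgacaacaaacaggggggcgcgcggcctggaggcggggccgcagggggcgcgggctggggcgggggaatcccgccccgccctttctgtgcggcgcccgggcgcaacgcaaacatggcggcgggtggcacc

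Of the 7 early enzymes 3 fell, 1 rose and 3 did not pass the test, beside 19.8% lower and 21.0% higher of all genes tested. ACAT2, the cytosolic thiolase that joins acetyl-CoA units, had 93.9, 98.2 and 73.5 CPM in KO-labelled 11, 12 and OG, against 228, 230.0 and 234 CPM in parental-labelled W1, W2 and W3. IDI1, which isomerises isopentenyl diphosphate, had 78.9, 77.4 and 69.9 CPM against 167, 184 and 175 CPM in the parental-labelled libraries. FDPS, farnesyl diphosphate synthase, had 210.2, 219 and 207 CPM in KO-labelled libraries and 349, 349.5 and 354 CPM in parental-labelled ones. For all 3 every KO-labelled library lay below every parental-labelled one, as held for 27.1% of all genes tested. Their log2 fold changes were -1.38 (SE 0.11, adjusted p = 5.97e-05) for ACAT2, -1.22 (SE 0.08, adjusted p = 2.01e-05) for IDI1 and -0.73 (SE 0.06, adjusted p = 6.60e-05) for FDPS in the edgeR test.

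HMGCS1, which makes HMG-CoA immediately after the ACAT2 step, went the other way. It had 241, 204 and 174 CPM in KO-labelled 11, 12 and OG, against 123, 124 and 119 CPM in the parental-labelled libraries, with no overlap and the highest value in population 11. Its log2 fold change was 0.76 (SE 0.11, edgeR adjusted p = 0.00130). The middle of the early segment held the genes that did not pass. The mevalonate kinase MVK averaged 32.3 ± 2.41 CPM in KO-labelled and 35.1 ± 3.38 CPM in parental-labelled libraries (SD, n = 3 each; edgeR adjusted p = 0.372). The phosphomevalonate kinase PMVK had 32.1, 34.8 and 32.1 CPM in KO-labelled and 37.1, 36.9 and 41.8 CPM in parental-labelled libraries. Its groups did not overlap, yet it was not called (log2 fold change -0.22, edgeR adjusted p = 0.0659). MVD, which makes isopentenyl diphosphate, had 62.5, 67.4 and 104.8 CPM in KO-labelled 11, 12 and OG, against 97.6, 105.0 and 129 CPM in parental-labelled libraries, so populations 11 and 12 lay below all parental-labelled values and OG within them. MVD was not called by edgeR with all libraries (log2 fold change -0.50, SE 0.20, adjusted p = 0.0761). Without OG, singled out here by its value, MVD was at -0.77, with no p-value given. DESeq2 called it lower with all 6 libraries (-0.51, adjusted p = 0.0399).

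GGPS1 draws farnesyl diphosphate off into geranylgeranyl diphosphate, the lipid attached to many small GTPases. It had 87.2, 76.3 and 66.3 CPM in KO-labelled libraries, against 111, 107 and 112 CPM in parental-labelled ones, and fell by 0.52 on the log2 scale (SE 0.10, edgeR adjusted p = 0.00434).

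Of the 12 late enzymes 8 fell, 1 rose and 3 did not pass the test, beside 19.8% lower and 21.0% higher of all genes tested. The first committed steps were all lower. FDFT1, squalene synthase, had 285, 262 and 182 CPM in KO-labelled 11, 12 and OG, against 364, 366 and 362 CPM in parental-labelled libraries, lowest in OG. SQLE, which oxidises squalene, had 44.5, 47.8 and 45.7 CPM in KO-labelled and 62.5, 61.4 and 65.4 CPM in parental-labelled libraries. LSS, which closes the rings to form lanosterol, had 134, 131 and 130.3 CPM against 168, 172 and 183 CPM in parental-labelled libraries. These were falls of modest size, with log2 fold changes of -0.58 (SE 0.15, adjusted p = 0.0150) for FDFT1, -0.46 (SE 0.07, adjusted p = 0.00146) for SQLE and -0.41 (SE 0.06, adjusted p = 0.00160) for LSS in the edgeR test.

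After lanosterol the changes were less even. MSMO1, the methyl sterol oxidase, had 52.2, 45.9 and 60.7 CPM in KO-labelled libraries and 134, 133.7 and 130.1 CPM in parental-labelled ones. EBP, the sterol isomerase, had 74.0, 75.1 and 77.6 CPM in KO-labelled and 171.5, 171.6 and 176 CPM in parental-labelled libraries. These were the lowest log2 fold changes among the late enzymes, -1.33 (SE 0.10, adjusted p = 5.74e-05) for MSMO1 and -1.20 (SE 0.06, adjusted p = 8.57e-06) for EBP. HSD17B7, a sterol ketone reductase, had 11.2, 10.8 and 12.1 CPM against 17.9, 16.6 and 16.3 CPM in parental-labelled libraries, a log2 fold change of -0.57 (SE 0.10, adjusted p = 0.00241). SC5D, a sterol desaturase, had 141.5, 155 and 142 CPM against 201, 210.2 and 202 CPM in parental-labelled libraries, a log2 fold change of -0.48 (SE 0.07, adjusted p = 8.44e-04). In each of these 4 genes the KO-labelled values lay wholly below, as held for 27.1% of all genes tested. DHCR7, the reductase that ends one arm of the pathway, changed least among the called falls. It had 258, 235 and 245 CPM in KO-labelled libraries, against 284, 295 and 309 CPM in parental-labelled ones, a log2 fold change of -0.27 (SE 0.07, edgeR adjusted p = 0.0146), and its adjusted p was 0.0590 without W2, 0.0531 without W3 and 0.102 on log2(FPKM + 1).

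NSDHL, the dehydrogenase that works beside MSMO1 in removing the same methyl groups, was the late enzyme that rose. It had 141, 159.6 and 159.6 CPM in KO-labelled libraries and 133, 131 and 135 CPM in parental-labelled ones, a log2 fold change of 0.20 (SE 0.07). Its adjusted p of 0.0495 lay at the threshold, and the call was lost without any 1 parental-labelled library (adjusted p of 0.126 to 0.183), without population 12 (0.121), with no filter on low counts (0.123) and in DESeq2 (0.0758). Both sterol reductases that act on the same double bond missed the threshold. TM7SF2 averaged 23.0 ± 1.53 CPM in KO-labelled and 19.8 ± 1.36 CPM in parental-labelled libraries (SD, n = 3 each; edgeR adjusted p = 0.102). LBR, which is also the lamin B receptor of the inner nuclear membrane, had 123, 139.6 and 62.4 CPM in KO-labelled 11, 12 and OG and 129, 138 and 121 CPM in parental-labelled libraries, so OG alone lay below the parental-labelled range (adjusted p = 0.455).

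CYP51A1, the lanosterol demethylase, could not be read well from the counts. It had 43, 54 and 75 counts in KO-labelled and 53, 55 and 69 in parental-labelled libraries, about 2.07 and 2.05 CPM, while the authors' FPKM (fragments scaled to transcript length and depth) averaged 17.3 ± 0.758 and 17.9 ± 0.361 (SD, n = 3 each). Its ratio of CPM to FPKM, 0.117, lay at the 1.53 percentile of tested genes, whose median was 2.15. The GENCODE annotation on GRCh38, which need not be the one used for counting, places other transcripts over it on the same strand. Neither table called it. The counting program is not given, and the cause of the low count was not tested.

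**Figure D2:**
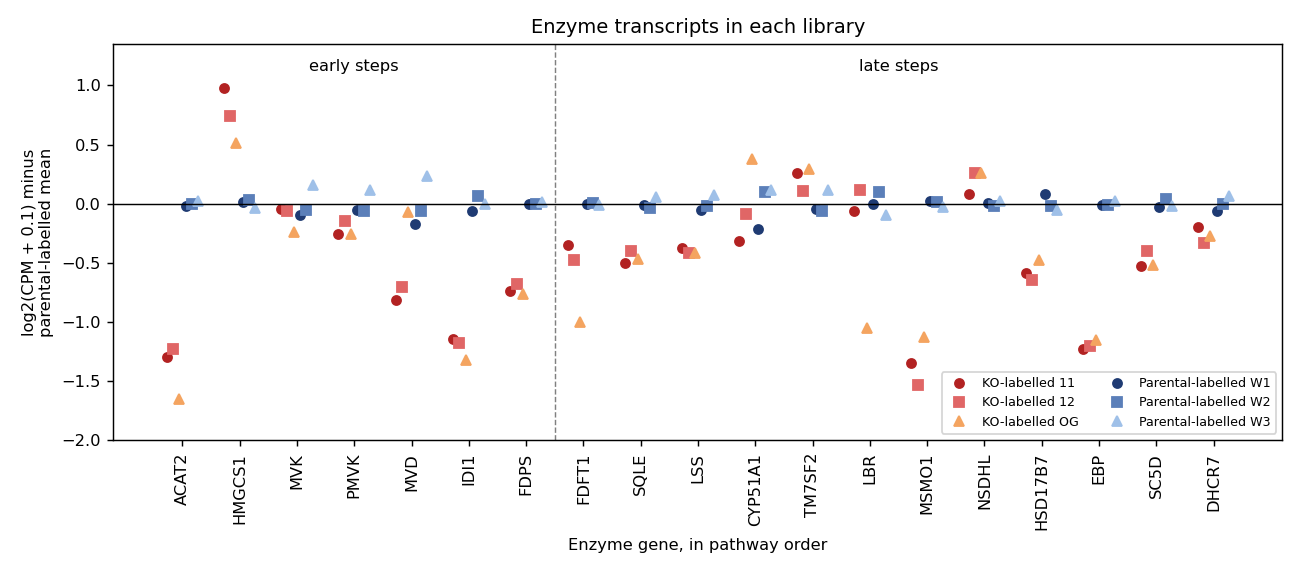
Each library's log2(CPM + 0.1) minus the mean of the 3 parental-labelled libraries, for the 7 early and 12 late enzymes in pathway order. The parental-labelled points stay near 0, while KO-labelled points lie below for most enzymes and all 3 lie above 0 for HMGCS1, NSDHL and TM7SF2, and OG departs from 11 and 12 for MVD, FDFT1 and LBR.

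Early and late steps had close medians over all libraries, but not within each KO-labelled population. The median log2 fold change was -0.50 over the 7 early and -0.43 over the 12 late enzymes, a difference (late minus early) of 0.07. The early median was the value of MVD, which was not called. ACAT2, IDI1 and FDPS lay below it (-1.38 to -0.73) and PMVK, MVK and HMGCS1 above it (-0.22 to 0.76). By library, the early median relative to the parental-labelled mean was -0.74, -0.68 and -0.26 in KO-labelled 11, 12 and OG, and the late median was -0.37, -0.40 and -0.47. The difference was thus 0.37 and 0.28 in 11 and 12 and -0.21 in OG, so its sign depended on the library. With the split moved to lanosterol, the medians were -0.27 for the 9 steps after it and -0.48 for the 10 steps up to it. Summed over genes, early enzymes held 691 to 752 CPM in KO-labelled and 1035 to 1092 CPM in parental-labelled libraries, and late enzymes 1144 to 1290.2 and 1686 to 1723 CPM. No p-value is given for these summaries, which run over chosen genes.

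Per unit of length, FDPS, FDFT1 and EBP were the most abundant enzyme transcripts in parental-labelled cells. FDPS averaged 204 ± 12.6 FPKM in KO-labelled and 314 ± 9.22 FPKM in parental-labelled libraries, FDFT1 157 ± 36.2 and 223 ± 5.56 FPKM, and EBP 87.1 ± 1.69 and 194 ± 5.65 FPKM (SD, n = 3 each). In KO-labelled cells EBP lay below DHCR7, which had 121 ± 5.87 and 134 ± 2.85 FPKM. HSD17B7 was the least abundant enzyme on this scale, at 9.14, 8.68 and 8.92 FPKM in KO-labelled and 13.6, 12.3 and 13.1 FPKM in parental-labelled libraries.

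SREBP2 and its escort moved in opposite directions. SREBF2 had 156, 138 and 178 CPM in KO-labelled libraries, against 226, 234 and 242 CPM in parental-labelled ones, a log2 fold change of -0.57 (SE 0.10, edgeR adjusted p = 0.00231). SCAP had 74.6, 69.3 and 75.0 CPM in KO-labelled and 58.7, 57.2 and 60.1 CPM in parental-labelled libraries, a log2 fold change of 0.31 (SE 0.07, adjusted p = 0.00770, and 0.0546 without W2). Neither gene overlapped between groups, as held for 54.4% of all genes tested. INSIG1, the retention protein that is itself a target of SREBP2, had 50.4, 28.7 and 26.2 CPM in KO-labelled 11, 12 and OG and 40.5, 43.2 and 40.1 CPM in parental-labelled libraries. Population 11 thus lay above and populations 12 and OG below all parental-labelled values, and the gene was not called (edgeR adjusted p = 0.437). Without population 11 the log2 fold change of INSIG1 was -0.59. That library was singled out by its high value, so no p-value is given and no fall is read from it.

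None of the 3 tested genes of sterol uptake and transport was called with all libraries, beside 40.8% of all genes tested. STARD4, a cytosolic sterol carrier, had 51.8, 34.7 and 29.5 CPM in KO-labelled libraries and 34.0, 34.7 and 29.8 CPM in parental-labelled ones, high in population 11 (adjusted p = 0.364). Its log2 fold change of 0.23 (SE 0.19) became 0.39 without OG and -0.04 without population 11. NPC1 and NPC2, which pass cholesterol out of lysosomes, were at 0.09 (SE 0.11, edgeR adjusted p = 0.524) and 0.04 (SE 0.11, adjusted p = 0.805) on the log2 scale. The intestinal uptake transporter NPC1L1 was near absent, with 1, 5 and 7 counts in KO-labelled and 3, 1 and 1 in parental-labelled libraries, and was not tested. SOAT1, which stores cholesterol as esters, fell. It had 52.1, 44.6 and 48.7 CPM in KO-labelled libraries and 63.8, 63.8 and 64.1 CPM in parental-labelled ones, a log2 fold change of -0.40 (SE 0.08, edgeR adjusted p = 0.00475).

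Of the 5 genes around LXR, ABCA1 was called, higher, and 4 were not called, beside 40.8% called of all genes tested. ABCA1, which exports cholesterol to lipid-poor apolipoprotein, had 6.26, 4.35 and 2.79 CPM in KO-labelled 11, 12 and OG, against 0.726, 0.795 and 0.579 CPM in parental-labelled libraries. Every KO-labelled value lay above every parental-labelled one, at a low level in both groups. The log2 fold change was 2.67 (SE 0.36, edgeR adjusted p = 7.71e-04), the largest of the 32 in size. ABCG1, which exports cholesterol to mature lipoprotein, had 17.4, 8.17 and 6.28 CPM in KO-labelled libraries and 10.6, 9.97 and 9.64 CPM in parental-labelled ones. MYLIP, a ubiquitin ligase that removes lipoprotein receptors, had 37.6, 25.0 and 23.5 CPM against 34.9, 32.7 and 32.4 CPM in parental-labelled libraries. In both genes population 11 lay above, and 12 and OG below, all parental-labelled values, as for INSIG1. Neither was called with all libraries. Without population 11 the log2 fold changes were -0.48 for ABCG1 and -0.46 for MYLIP. As that library was singled out by its values, no p-value is given. Of the receptors, NR1H2 was at 0.10 (SE 0.14, edgeR adjusted p = 0.610) and NR1H3 at -0.22 (SE 0.11, adjusted p = 0.147), NR1H3 being at -0.32 without OG.

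**Figure D3:**
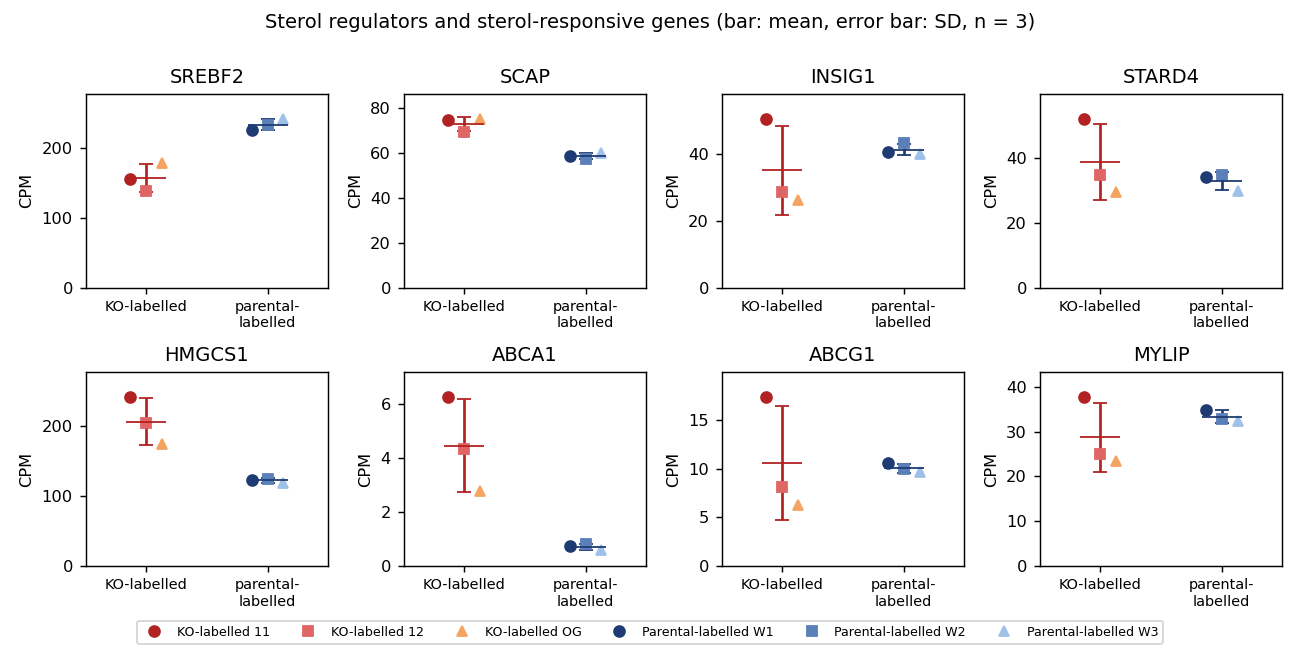
CPM of 8 genes in each library, with the mean and SD of each group (n = 3). SREBF2 is lower and SCAP, HMGCS1 and ABCA1 are higher in all KO-labelled libraries, and population 11 is the highest KO-labelled library for INSIG1, STARD4, HMGCS1, ABCA1, ABCG1 and MYLIP.

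The KO-labelled populations differed more among themselves than the parental-labelled wells did. The median SD of log2(CPM + 0.1) over the 32 genes was 0.19 in the KO-labelled and 0.06 in the parental-labelled group, beside 0.19 and 0.09 over all genes tested.

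Where the genes lie was then set beside how they changed. For each gene the median log2 fold change of the 10 tested genes on each side was taken, by their order in GENCODE on GRCh38. The files use hg19, so gene order alone was taken. The enzymes that fell most had neighbours that were also lower. The neighbour median was -0.68 for ACAT2 on chromosome 6 (15 of 20 neighbours called lower), -0.68 for IDI1 on chromosome 10 (8 of 15), -0.54 for MSMO1 on chromosome 4 (11 of 20) and -0.80 for EBP on chromosome X (14 of 20). HMGCS1 on chromosome 5 had neighbours at 0.30 (9 of 20 called higher) and NSDHL, elsewhere on chromosome X, at 0.76 (15 of 20 called higher). Across the 19 enzymes Pearson's r between a gene and its neighbour median was 0.81 and Spearman's rho 0.76, against 0.30 and 0.41 across 14277 tested genes. The 14277 genes were not matched to the enzymes in expression level, so the 2 sets of coefficients are not like for like. These points are genes of the same 6 libraries, not replicates, so no p-value is given.

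Set against their neighbours, most enzymes still lay lower. Of the 19, 16 lay below their neighbour median (84.2%), against 7137 of all 14277 genes, with a median difference of -0.42 for early and -0.31 for late enzymes. An edgeR fit with the neighbour median as an offset, chosen after seeing the data, called 12 of 32 genes lower and 3 higher. It called 35.8% of all genes, 18.3% lower and 17.5% higher. Its p-values leave out the error of the neighbour medians. In it NSDHL reversed, to -0.56 (SE 0.07, adjusted p = 8.78e-04), and SC5D, whose neighbours were at 0.32, was the lowest enzyme at -0.80 (SE 0.06, adjusted p = 1.22e-04). HMGCS1 was at 0.46 (SE 0.11, adjusted p = 0.0162) and ABCA1 at 2.54 (SE 0.37, adjusted p = 0.00179), both still higher, and SREBF2 was still lower at -0.45 (SE 0.10, adjusted p = 0.00877). The calls of GGPS1, FDFT1, HSD17B7, DHCR7 and SOAT1 were lost, with adjusted p-values of 0.0675 to 0.395, and MVD and NR1H3 were called lower. The part of the surrounding region in these changes was not tested.

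**Figure D4:**
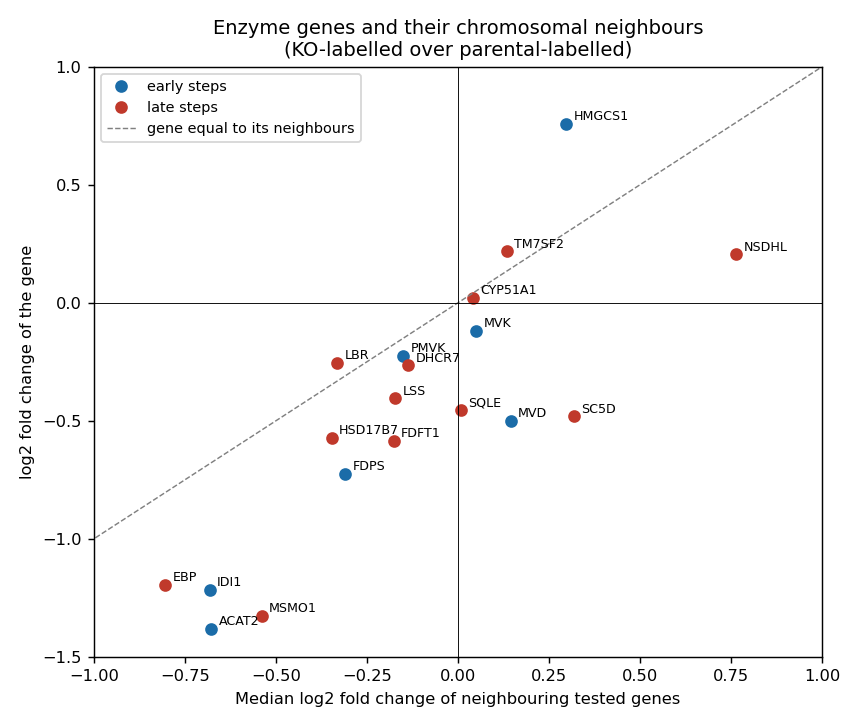
Log2 fold change (KO-labelled over parental-labelled) of the 19 enzyme genes against the median of up to 20 neighbouring tested genes, with early enzymes in blue and late ones in red. ACAT2, IDI1, EBP and MSMO1 lie at the lower left, and 16 of the 19 points lie below the dashed line of equality, NSDHL, MVD and SC5D among them.

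Other genes of the pathway, in 4 lists chosen by function, held 51 tested genes of 59, of which 18 were lower and 8 higher (51.0% called, beside 40.8% of all genes tested, of which 19.8% lower and 21.0% higher), with a median log2 fold change of -0.12, against 0.01 over all genes tested. Of 12 genes of SREBP processing and sterol-regulated degradation 5 fell and 2 rose. MBTPS2, the second protease that releases SREBP, averaged 20.3 ± 0.973 CPM in KO-labelled and 48.9 ± 1.68 CPM in parental-labelled libraries (log2 fold change -1.27, SE 0.08, adjusted p = 2.00e-05). VCP, the ATPase that pulls ubiquitin-tagged proteins from the endoplasmic reticulum, averaged 360.1 ± 26.5 and 1441 ± 17.2 CPM (log2 fold change -2.0, SE 0.07, adjusted p = 1.82e-06), and AUP1, an adaptor of the same route, 176 ± 7.10 and 103 ± 3.0 CPM (0.78, SE 0.06, adjusted p = 7.87e-05). Named after their values were seen, INSIG2, the second INSIG, had 20.6, 18.4 and 38.6 CPM in KO-labelled and 58.9, 58.2 and 57.3 CPM in parental-labelled libraries (log2 fold change -1.17, SE 0.25, edgeR adjusted p = 0.00673). SREBF1, which encodes SREBP1, had 116, 74.1 and 44.9 CPM against 72.1, 73.1 and 87.6 CPM in parental-labelled libraries and was not called (adjusted p = 0.981).

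Of 17 tested genes of sterol transport and storage 8 fell and 3 rose, beside 19.8% lower and 21.0% higher of all genes tested. OSBPL2, an oxysterol-binding family member, rose by 0.95 (SE 0.06), while LRP8, a lipoprotein receptor, fell by 0.76 (SE 0.06) and SCARB2, a lysosomal membrane protein, by 0.60 (SE 0.08), all on the log2 scale, with adjusted p-values of 3.24e-05, 8.26e-05 and 7.32e-04 in the edgeR test. Of 16 genes of the isoprenoid branches 2 fell, 2 rose and 12 were not called, beside 40.8% called of all genes tested. CHM, the escort protein of RAB prenylation, was at -0.85 (SE 0.12, adjusted p = 0.00118), the geranylgeranyl transferase subunit RABGGTB at -0.29 (SE 0.07, adjusted p = 0.0105) and the farnesyl transferase subunit FNTB at 0.45 (SE 0.11, adjusted p = 0.0113). Of 6 tested genes of LXR and oxysterols 3 fell. CYP7B1, an oxysterol hydroxylase, had 2, 1 and 0 counts in KO-labelled and 32, 28 and 38 in parental-labelled libraries, a ratio of parental-labelled to KO-labelled of 31.3 (95% binomial interval 10.4 to 154, counting error only). CYP27A1, which makes an oxysterol, also fell, at -0.40 (SE 0.11, adjusted p = 0.0203).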

How the data were processed

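Polyadenylated RNA of 6 cultures was sequenced, 3 per group by the genotype label. The authors deposited raw counts per gene symbol and FPKM values. Per the submitters' processing notes, the tools were Cufflinks 2.0.2, SAMtools 0.1.19 and STAR 2.4.0f1, on hg19. The library kit was directional, per the labels; the counting program, strand setting and annotation are not given in sources used here. FPKM values deposited by the authors are scaled by transcript length and depth. Genes with near-identical copies (FDPS, HSD17B7, CYP51A1) or an overlapping partner are uncertain if reads were split or strand was ignored. Pairs on opposite strands include ACAT2 and TCP1, and MVK and MMAB. Pairs on the same strand include GGPS1 and TBCE, and TM7SF2 and VPS51.

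Counts were tested with edgeR 4.0.16 (R 4.3.3): filterByExpr defaults (minimum count 10, total 15), TMM, quasi-likelihood F test, Benjamini-Hochberg over 17420 genes, threshold 0.05. The SE is the log2 fold change divided by the square root of F. One count was worth 0.0321 to 0.0397 CPM. Alternatives used DESeq2 1.42.0 and limma 3.58.1. FPKM genes needed 1 FPKM in 3 libraries. The steps were tested on simulated data. Values in each library were given for called genes and for SREBF2, SCAP, HMGCS1 and FDFT1, and, chosen after values were seen, for others where a library stood apart; list genes were the 3 with the smallest p among those called. The members and lists were chosen with earlier results of these data known. A gene of these lists is not reported here.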

Additional observations from a re-analysis of the deposited data

How the results depend on the processing

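No paired analysis was possible because the KO-labelled libraries carry no replicate number that matches a parental-labelled well. The count of 18 changed genes was 16 to 18 under DESeq2, voom, other scalings, other filters and the FPKM tests. The share of all genes called was not counted in these fits. ABCA1 was too low to be tested on FPKM. With a filter of 10 CPM in 3 libraries ABCA1, ABCG1 and CYP51A1 were not tested. A test against a 1.5-fold change left 6, beside 11.0% of all genes called in either direction. Of the 6, 5 were lower (ACAT2, IDI1, FDPS, MSMO1 and EBP, where 5.18% of all genes were called lower) and 1 higher (ABCA1). With a library left out the count of changed genes was 15 to 21, with 13 to 17 lower and 2 to 5 higher. Without W2, 2 were higher. The share of all genes called was 52.6% without OG, beside 40.8% with all libraries. It was not counted for the other left-out libraries, so these counts cannot be compared with each other. The median log2 fold change of early enzymes was -0.71 to -0.36 with a library left out, and of late enzymes -0.48 to -0.41. The late median was -0.37 on log2(FPKM + 1), and -0.31 relative to neighbours, an alternative chosen after seeing the data. The late minus early difference was -0.08 to 0.30 with a library left out. It was below 0 without population 11 (-0.064), population 12 (-0.077) or W3 (-0.028). In the main fit the early median was the value of MVD (-0.50). The same held without population 11 (-0.36), population 12 (-0.40), W1 (-0.59), W2 (-0.54) or W3 (-0.38). Without OG the early median was the value of FDPS (-0.71). Why MVD differed between libraries was not tested. NSDHL was at -0.56 relative to neighbours. ABCG1 was at -0.48 to 0.33 with a library left out. In other scalings the direction of the called genes stayed the same. Low counts limit NPC1L1, CYP7B1, CYP51A1 and ABCA1. ABCA1 had 22, 20 and 18 counts in parental-labelled W1, W2 and W3.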
